A study of Mus musculus with 6 samples.

Results

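The 31 genes described here encode the heterogeneous nuclear ribonucleoproteins (hnRNPs) and the serine/arginine-rich (SR) splicing factors. They were taken from the count table by symbol, as every gene named Hnrnp plus letters or digits (20 genes) or Srsf plus a number (11 genes), out of 33276 genes in all. Pseudogene rows carrying the suffix -ps were left out, 2 in number. Both kinds of protein bind pre-mRNA in the nucleus. SR proteins carry RNA recognition motifs and a tail of arginine and serine repeats, and typically bind exon enhancers and help the spliceosome to recognise the exon. Many hnRNPs act on the opposite side by binding silencers, and they also package, export and stabilise RNA. The balance between the 2 families is a classical setting for the choice between alternative exons.

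The samples were fibroadipogenic progenitors (FAPs), mesenchymal cells of the muscle interstitium that can give rise to fibroblasts and fat cells. They came from mice with middle cerebral artery occlusion (MCAO), a stroke model in which a brain artery is blocked. The 3 circulating samples were taken from peripheral blood and the 3 muscle samples from muscle, and all 6 carried the MCAO label, with no age, sex, genotype or time after occlusion given. Samples of mice without the occlusion were not analysed here. Whether the 3 samples of a group stem from different mice is not stated, and the p-values therefore reflect sample-to-sample spread that could be purely technical.

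The libraries held 5522193 to 13813329 counts in circulating and 17532558 to 23424039 in muscle samples. These were, without 18S ribosomal RNA, 3106011 to 7880709 and 12663430 to 15864333. The FAP marker list of 8 genes was detected in all libraries, at a summed 22757 to 25907 counts per 1000000 without 18S in circulating and 37183 to 38512 in muscle samples. The 10 leukocyte markers, none of them at 0 throughout, summed to 195 to 385 in circulating against 17.0 to 23.0 in muscle samples, and all 10 had the higher mean in circulating samples. Of the leukocyte markers Laptm5 was the most abundant, at 107, 29.3 and 7.80 TMM-scaled counts per 1000000 (CPM) in circulating replicates 1, 2 and 3 and 0.609 to 1.03 CPM in muscle. Red cell markers summed to 315 to 549 in circulating and 112 to 475 in muscle samples. Satellite cell markers summed to 26.7 to 125 and 16.6 to 27.2, and muscle fibre markers to 67.9 to 263 and 87.2 to 113. The groups overlapped for these lists and for platelet and endothelial markers. Of the 8 FAP markers 2 had the higher mean in circulating samples in counts per 1000000 without 18S. The part of RNA from leukocytes or other cells in the results below was not tested. In such bulk samples, fewer cells of a type and less RNA per cell cannot be told apart.

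The member with a difference past the threshold was Hnrnph1, and the contrast within its subfamily was with Hnrnpf, so the promoters of these 2 genes are printed. They are RefSeq sequences of build GRCm38.p6, 250 bases before to 50 after the first listed start, and not from the build of the counts. The capitals mark matches to the motifs searched for. Hnrnph1 lies on the plus strand with 5 listed starts, and its window is chr11:50376740-50377039. Hnrnpf lies on the plus strand with 4 listed starts, and its window is chr6:117900090-117900389.
Hnrnph1: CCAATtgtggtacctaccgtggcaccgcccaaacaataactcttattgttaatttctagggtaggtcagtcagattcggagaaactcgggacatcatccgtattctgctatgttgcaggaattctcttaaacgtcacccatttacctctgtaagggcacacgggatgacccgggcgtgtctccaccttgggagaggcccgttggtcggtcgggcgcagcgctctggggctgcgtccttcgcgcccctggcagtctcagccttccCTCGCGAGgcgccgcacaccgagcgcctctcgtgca
Hnrnpf: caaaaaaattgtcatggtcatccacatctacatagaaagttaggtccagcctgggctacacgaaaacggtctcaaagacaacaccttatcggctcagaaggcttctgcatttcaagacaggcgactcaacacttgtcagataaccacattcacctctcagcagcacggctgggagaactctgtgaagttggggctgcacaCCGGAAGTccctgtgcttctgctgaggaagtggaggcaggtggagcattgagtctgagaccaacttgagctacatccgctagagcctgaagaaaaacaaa

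The Hnrnph1 window held 24 CG dinucleotides and the Hnrnpf window 7. The median was 31 over the 29 members with a RefSeq entry and 7 over 27025 genes. On both strands, CCAAT was found in the windows of 16 of the 29 members and in 37.9% of all 27025. CTCGCGAG, which is its own reverse complement, was found in 3 members (Hnrnph1, Srsf4 and Srsf10) and in 0.958% of all. CCGGAAGT was found in 4 members and 4.0% of all, CGCATGCG in 1 member (Srsf7) and 1.91% of all, and TATAAA in 4 members and 14.2% of all. No 2 of these matches overlapped within a member's window. A match describes the letters and no binding was measured.

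The hnRNP genes together held a smaller share of the transcriptome in circulating than in muscle FAPs. They took 0.250%, 0.263% and 0.219% of the counts without 18S in circulating replicates 1, 2 and 3, and 0.393%, 0.418% and 0.472% in muscle replicates 1, 2 and 3. Every circulating library lay below every muscle library, with means of 0.244% ± 0.0225 and 0.427% ± 0.0402 (SD, n = 3). Without Hnrnph1 the other 19 genes held 0.233% ± 0.0207 and 0.365% ± 0.0238, again without overlap. The SR genes held 0.144%, 0.0942% and 0.126% in circulating and 0.148%, 0.132% and 0.164% in muscle replicates 1, 2 and 3. For the SR genes the groups overlapped, since circulating replicate 1 lay above muscle replicate 2. With 18S kept in the total the SR share was 0.0618% ± 0.0178 against 0.102% ± 0.008 and did not overlap, while 18S itself took 42.9% to 60.1% of circulating and 27.8% to 32.3% of muscle counts.

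**Figure D1:**
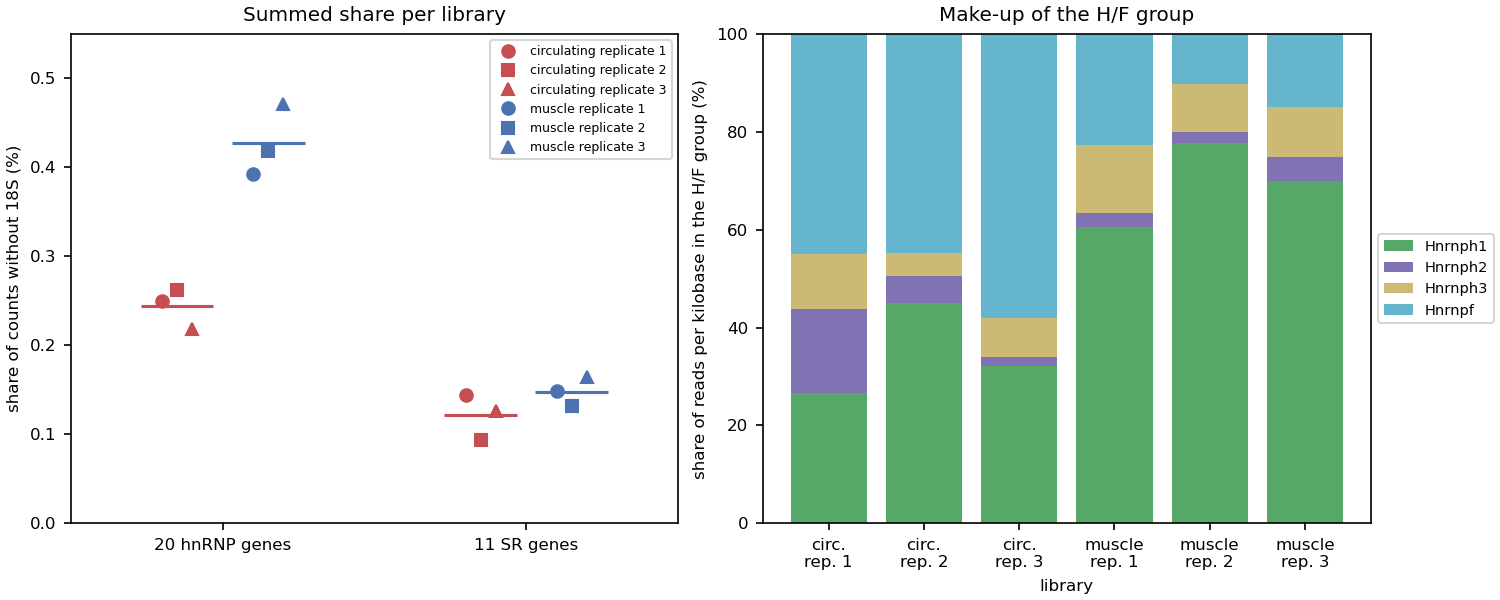
Left, share of counts without 18S in percent held by the 20 hnRNP and the 11 SR genes in each library (points) with the group mean (lines). The circulating libraries lie at 0.219% to 0.263% for hnRNPs, below the muscle libraries at 0.393% to 0.472%, and the groups overlap for SR genes. Right, make-up of the H/F group of paralogues in each library as the percent of its reads per kilobase of exon. Hnrnph1 makes up 26.5% to 45.1% in circulating and 60.5% to 77.7% in muscle libraries.

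All 31 genes passed the filter on low counts and were tested with 20248 genes in edgeR's quasi-likelihood test, scaled by trimmed means of M values (TMM). Past an adjusted p of 0.05, 1 hnRNP was lower in circulating FAPs and none higher, and no SR gene passed in either direction. Over all genes tested 0.104% were lower and 0.00494% higher by this rule. At an unadjusted p under 0.05, 9 of 20 hnRNP genes and 3 of 11 SR genes were lower. The background of this count was 9.64% of all genes, and 21.8% of the 4736 genes with a mean of at least 20 CPM, where 27 of the 31 members lay. With DESeq2, 7 hnRNP genes (Hnrnph1, Hnrnph3, Hnrnpc, Hnrnpr, Hnrnpa1, Hnrnpa2b1 and Hnrnpdl) and 1 SR gene (Srsf7) were lower at an adjusted p under 0.05 and none was higher. DESeq2 placed 10.3% of its 13456 genes lower and 1.16% higher. Its share among genes of at least 20 CPM alone was not computed, so abundance is not accounted for in the DESeq2 counts.

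The median log2 fold change, circulating minus muscle, was -1.24 over the hnRNP and -0.55 over the SR genes. It was 0.15 over all genes tested and -0.65 over those of at least 20 CPM. Over the 8 FAP markers it was -1.44, with all 8 negative with TMM scaling. Of the hnRNP genes 18 of 20 and of the SR genes 9 of 11 had a negative value, against 45.5% of all genes and 78.3% of those of at least 20 CPM. When the scaling was computed on the abundant genes alone, the hnRNP median was -0.54 and the SR median 0.16. The median was then -0.73 over the 8 FAP markers, 0.85 over all genes and 0.07 over the abundant ones. So 13 of 20 hnRNP and 5 of 11 SR genes were then negative, against 26.1% of all genes and 46.9% of those of at least 20 CPM, and the sign of the SR median turned with this scaling. With library size without 18S the medians were -0.67 and 0.05.

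**Figure D2:**
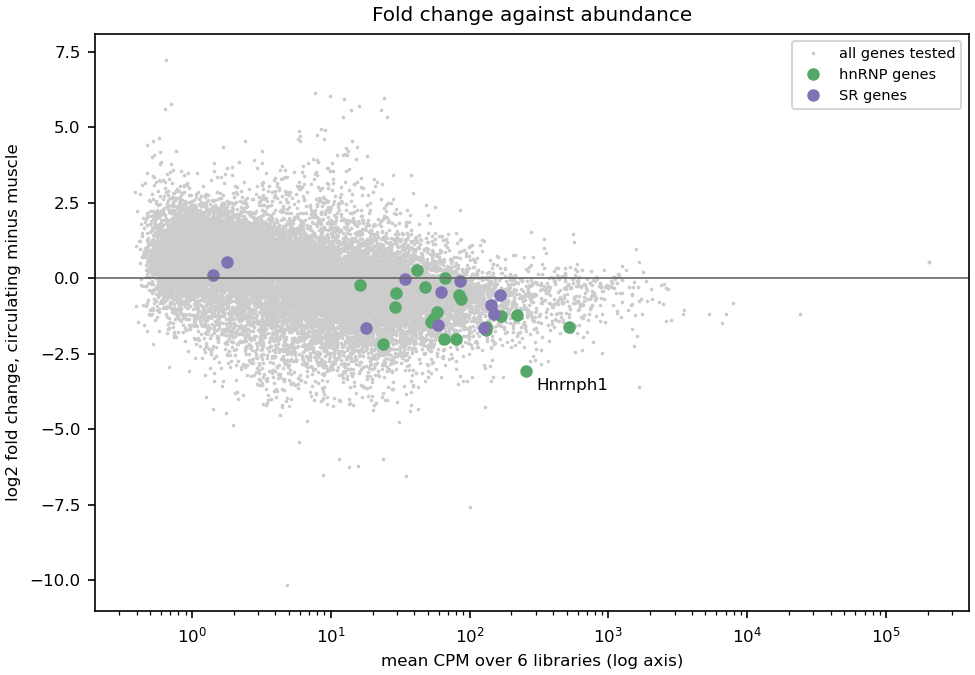
Log2 fold change, circulating minus muscle, against mean CPM over the 6 libraries (log axis) for all genes tested (grey), hnRNP genes (green) and SR genes (purple). Values fall with abundance, with a median of -0.65 at 20 CPM or more, and Hnrnph1 at -3.06 lies below the other members.

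Hnrnph1 encodes hnRNP H, which binds runs of G and can enhance or silence the splicing of nearby exons. It was at 80.3, 44.7 and 37.9 CPM in circulating replicates 1, 2 and 3 and at 299.6, 448 and 614 CPM in muscle replicates 1, 2 and 3. The highest circulating library was well below the lowest muscle library. Hnrnph1 was lower in circulating samples by 3.06 on the log2 scale in edgeR (± 0.46 SE, adjusted p = 0.0469). It averaged 54.3 ± 22.8 CPM in circulating and 454 ± 157 CPM in muscle samples (SD, n = 3). Scaled on abundant genes it was at -2.38 and did not pass (adjusted p = 0.0849), with the replicate block it was at -3.09 (adjusted p = 0.112), and with DESeq2 it passed (adjusted p = 2.58e-06). Without circulating replicate 1 it passed in edgeR (adjusted p = 0.0245), and without circulating replicate 2 or 3 or any 1 muscle replicate it did not (adjusted p = 0.106 to 0.220). The groups were apart with TMM, in counts without 18S and with scaling on abundant genes.

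The other H/F paralogues had smaller differences, which were not tested against that of Hnrnph1. Hnrnph3, a smaller relative of hnRNP H, was at 18.3, 2.53 and 5.05 CPM in circulating and 37.3, 31.1 and 48.3 CPM in muscle replicates, so all circulating libraries were lower (-2.16 ± 0.80, adjusted p = 0.208 in edgeR), and it was at -3.42 without circulating replicate 1. Hnrnpf, which binds the same kind of G-rich sequence, was at 71.0, 23.2 and 35.8 CPM in circulating and 58.7, 30.6 and 68.2 CPM in muscle replicates. Its groups overlapped (-0.28 ± 0.60, adjusted p = 0.806 in edgeR). Hnrnph2, the X-linked near copy of Hnrnph1, was at 39.0, 3.99 and 1.65 CPM in circulating and 10.3, 9.24 and 32.9 CPM in muscle replicates. Circulating replicate 1 was the highest of all 6 libraries for Hnrnph2 and circulating replicate 3 the lowest.

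Within a library, the make-up of a paralogue group does not depend on the scaling between libraries. This grouping was chosen after the values were seen, and it carries no test. Of the reads per kilobase of exon in the H/F group, Hnrnph1 held 26.5%, 45.1% and 32.1% in circulating and 60.5%, 77.7% and 69.9% in muscle replicates 1, 2 and 3. Hnrnpf held 45.0%, 44.8% and 58.1% in circulating and 22.7%, 10.2% and 14.9% in muscle replicates. By this measure Hnrnpf held more than Hnrnph1 in circulating replicates 1 and 3 and slightly less in replicate 2. It held less in every muscle library. The means of Hnrnpf and Hnrnph1 in circulating libraries were 49.3% ± 7.64 and 34.6% ± 9.53, and in muscle 15.9% ± 6.34 and 69.4% ± 8.61 (SD, n = 3). The order of the 2 genes in circulating libraries depends on the lengths used, 5842 bases of exon for Hnrnph1 and 3047 for Hnrnpf. Undivided counts were higher for Hnrnph1 in every circulating library (1100, 336 and 345 against 973, 174 and 326). By the longest transcript, at 4577 and 2401 bases, the circulating mean stayed higher for Hnrnpf. The longest coding transcripts had nearly equal numbers of 50-base words, 2378 for Hnrnph1 and 2352 for Hnrnpf. Reads of Hnrnpf are less certain, since 67.3% of the 50-base words of its longest coding transcript also occur in transcripts of 11 other genes, the most in Gm6430, against 4.67% for Hnrnph1. In the A/B, D, L and U groups of paralogues no member's share lay apart between the 2 tissues.

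The A/B proteins are the core of the classical hnRNP particle and commonly repress exons. Hnrnpa2b1, which also sorts RNA for transport, had the highest level of the family per length, at 78.3 ± 14.5 counts per kilobase of exon per 1000000 without 18S in circulating and 161 ± 31.3 in muscle FAPs. By its longest transcript the means were 141 and 291, again the highest of the family. In TMM-scaled CPM Hnrnpa2b1 was at 358, 181 and 226 in circulating and at 739, 606 and 1008 in muscle replicates, with no overlap (-1.62 ± 0.37, adjusted p = 0.125 in edgeR and 0.0127 in DESeq2). Hnrnpa1, a repressor that competes with SR proteins at many exons, was at 76.5, 56.2 and 52.0 CPM in circulating and 263, 115 and 227 CPM in muscle replicates. The groups were again apart (-1.71 ± 0.45, adjusted p = 0.148 in edgeR and 0.0108 in DESeq2). For Hnrnpa1, 46.4% of 50-base words recur in 19 other genes, so its counts depend on how such reads were assigned. Hnrnpa3 (-1.11 ± 0.58) and Hnrnpa0 (-0.69 ± 0.45), 2 less studied members, had smaller differences in edgeR. Hnrnpa0 stood at 0.05 with scaling on abundant genes.

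Hnrnpc encodes the C proteins, which bind uridine-rich tracts, measure RNA length and can mask cryptic splice sites. It was at 23.9, 42.2 and 28.6 CPM in circulating and 133, 107 and 141 CPM in muscle replicates. Even the highest circulating library lay far below the lowest muscle library. The log2 fold change of Hnrnpc was -2.01 ± 0.47 (adjusted p = 0.127 in edgeR and 0.000983 in DESeq2). Hnrnpk, a KH-domain protein of C-rich RNA and DNA, was at 208, 118 and 69.8 CPM in circulating and 349.5, 275 and 299.8 CPM in muscle replicates. Its groups were apart (-1.22 ± 0.44, adjusted p = 0.203 in edgeR) but overlapped with scaling on abundant genes. Hnrnpu, the scaffold attachment factor that ties RNA to chromatin, was at 161, 86.2 and 50.1 CPM in circulating and 220, 168 and 322 CPM in muscle replicates. The gap between its groups was narrow with TMM (-1.26 ± 0.50, adjusted p = 0.221 in edgeR) and closed in both other scalings.

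Hnrnpdl, a relative of the AU-rich element binding protein Hnrnpd, was at 38.2, 109 and 47.8 CPM in circulating and 231, 199.8 and 167 CPM in muscle replicates. Its groups were apart with TMM (-1.61 ± 0.49, adjusted p = 0.174 in edgeR and 0.0295 in DESeq2) and overlapped in both other scalings compared, without 18S and on abundant genes. Hnrnpd itself was at 28.3, 26.4 and 83.8 CPM in circulating and 28.6, 32.8 and 51.8 CPM in muscle replicates, with circulating replicate 3 the highest of the 6 libraries (0.29 ± 0.63). Hnrnpab, a further member of the D group, had -0.94 ± 0.62. Hnrnpr, close to Syncrip, was at 27.2, 33.4 and 17.4 CPM in circulating and 200.0, 62.7 and 50.1 CPM in muscle replicates. Muscle replicate 1 was more than 3 times either other muscle library for Hnrnpr (-2.00 ± 0.64, adjusted p = 0.179 in edgeR and 0.0188 in DESeq2). Without that library Hnrnpr was at -1.17, and its groups overlapped in both other scalings.

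The remaining hnRNP genes did not pass in edgeR or DESeq2. Hnrnpll, a regulator of CD45 exon choice in lymphocytes, had -1.43 ± 0.65, and its paralogue Hnrnpl 0.02 ± 0.47. Hnrnpul2 had -1.35 ± 0.62 and Hnrnpul1 -0.49 ± 0.62, both relatives of Hnrnpu. Hnrnpm, which binds GU-rich sequence, had -0.56 ± 0.48. Adjusted p ran from 0.261 to 0.983 for these 5 genes in edgeR. Of the 50-base words of Hnrnpm 28.8% are shared with its neighbour March2, of Hnrnpab 29.0% mostly with Phykpl, and of Hnrnpk 37.8% mostly with Gm7964.

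**Figure D3:**
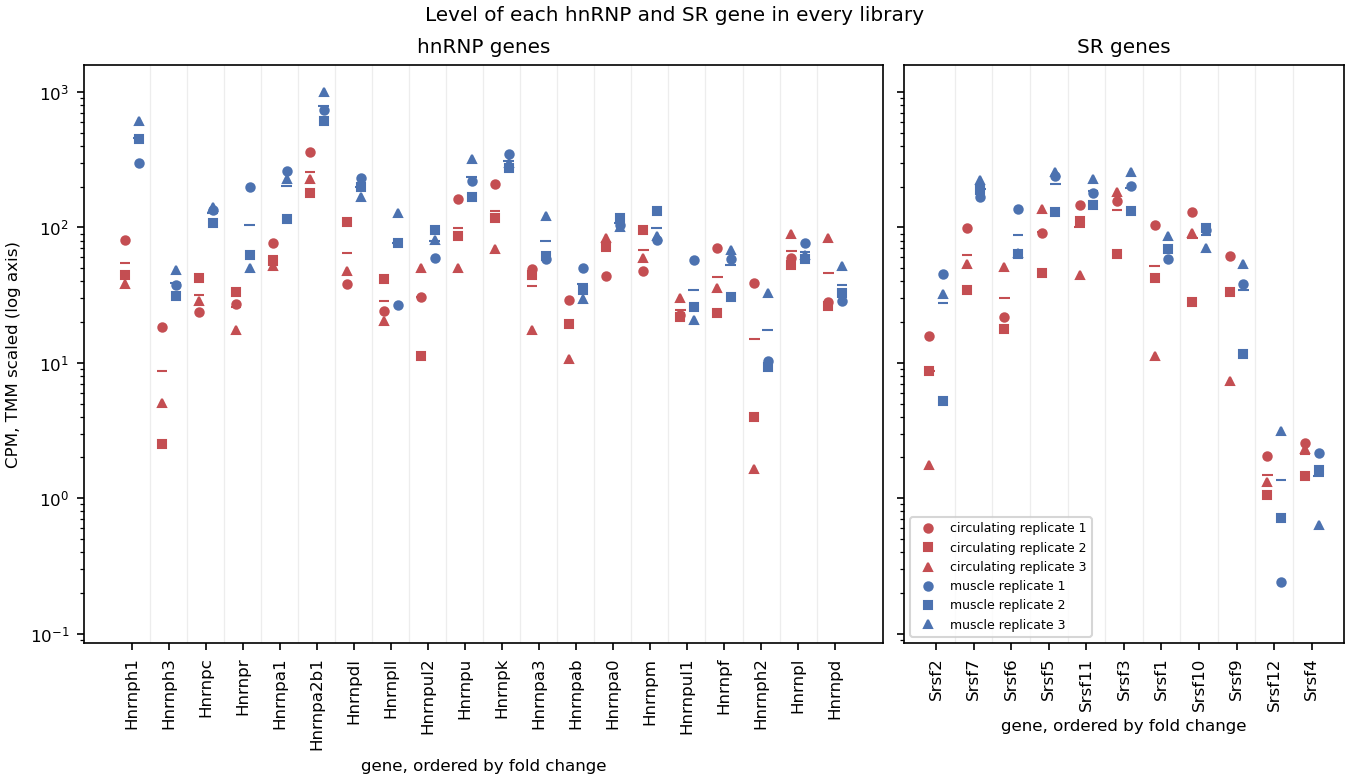
CPM with TMM scaling (log axis) of each hnRNP gene (left) and SR gene (right) in the 3 circulating (red) and 3 muscle (blue) libraries, 1 symbol shape per replicate, with group means as lines, ordered by fold change. Hnrnph1 lies at 37.9 to 80.3 CPM in circulating and 299.6 to 614 CPM in muscle libraries, while most SR genes have overlapping groups.

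Among the SR genes the groups mostly overlapped. Srsf7, a zinc-knuckle SR protein that also links splicing to export and polyadenylation, was at 98.7, 34.7 and 53.8 CPM in circulating and 167, 190.0 and 224 CPM in muscle replicates. All circulating libraries were lower with TMM, without 18S and on abundant genes (-1.63 ± 0.48, adjusted p = 0.169 in edgeR and 0.0200 in DESeq2). Srsf6, known as a regulator of Tau exon choice, was at 21.8, 17.8 and 50.6 CPM in circulating and 137, 63.4 and 65.1 CPM in muscle replicates. The groups of Srsf6 were apart with TMM (-1.56 ± 0.60, adjusted p = 0.216 in edgeR) and overlapped both without 18S and with scaling on abundant genes. Per kilobase of all annotated exons, Srsf5 and Srsf7 had the highest levels of the SR genes over all libraries, whereas by the longest transcript Srsf7 came first, Srsf11 second and Srsf5 after them. Srsf5 was at 47.4 ± 24.1 counts per kilobase of exon per 1000000 without 18S in circulating and 70.0 ± 16.8 in muscle FAPs, and Srsf7 at 34.9 ± 12.5 and 74.8 ± 13.0. In TMM-scaled CPM Srsf5 was at 91.6, 45.8 and 138 in circulating and 240.2, 130.5 and 255 in muscle replicates, where circulating replicate 3 lay above muscle replicate 2 (-1.18 ± 0.50, adjusted p = 0.234 in edgeR).

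Srsf9, a small SR protein with a short repeat tail, was at 61.5, 33.3 and 7.36 CPM in circulating and 37.9, 11.5 and 53.4 CPM in muscle replicates. Its spread within each group exceeded the difference between them (-0.01 ± 0.82, adjusted p = 0.996 in edgeR). Srsf1, the founding member of the family, ranged from 103 CPM in circulating replicate 1 to 11.2 CPM in circulating replicate 3, around the 58.4 to 86.2 CPM of muscle (-0.45 ± 0.71), and it was at -1.49 without the former and -0.09 without the latter. Srsf2, which binds both C-rich and G-rich enhancers, was at 1.76 to 15.7 CPM in circulating and 5.23 to 45.2 CPM in muscle (-1.66 ± 0.96), and shares 35.2% of its 50-base words, mostly with the overlapping Mettl23. Srsf3, the smallest SR protein and one that exports mRNA, had -0.55 ± 0.48. Srsf10, which represses splicing when dephosphorylated, had -0.08 ± 0.57, and Srsf11 had -0.87 ± 0.49. Srsf4 (0.53 ± 0.58) and Srsf12 (0.12 ± 0.82) were the rarest members, at up to 2.55 and 3.13 CPM in any library, with 64 reads or fewer per library. Adjusted p in edgeR lay between 0.341 and 0.944 for these 7 genes.

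**Figure D4:**
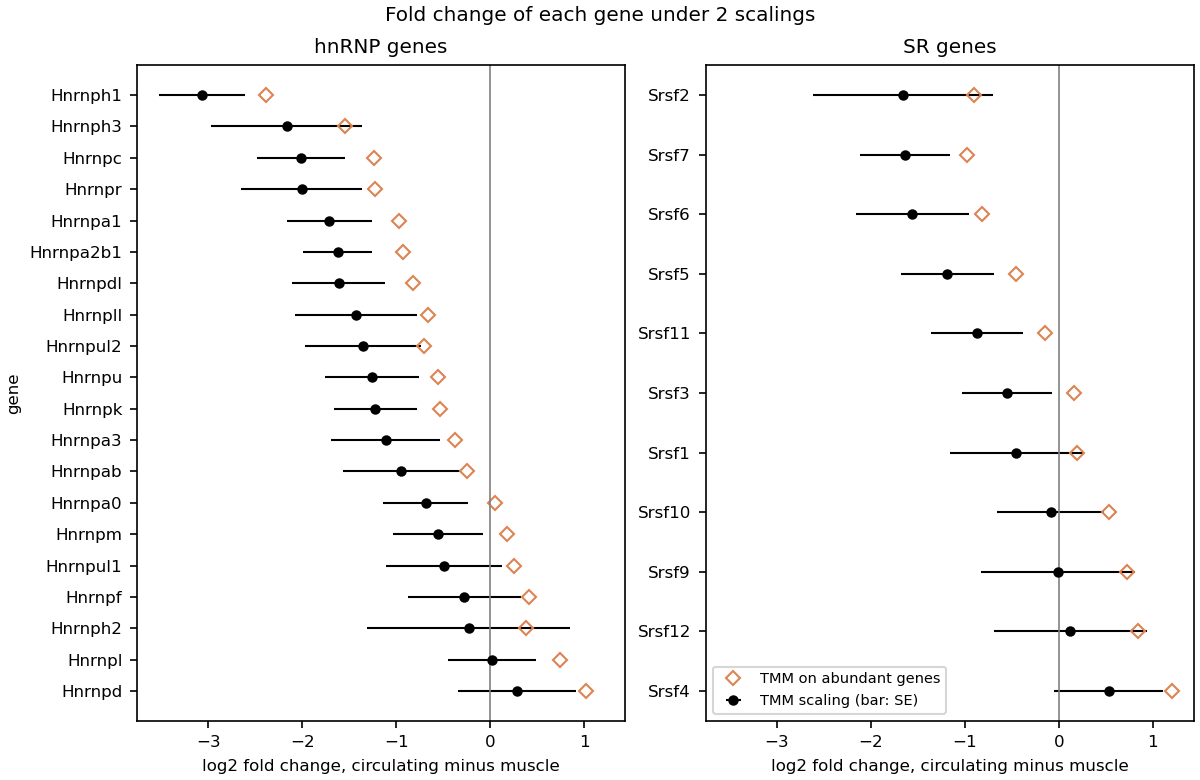
Log2 fold change, circulating minus muscle, of each hnRNP gene (left) and SR gene (right) with TMM scaling (black, bar = SE) and with scaling on abundant genes (open diamonds). Hnrnph1 is lowest at -3.06, or -2.38 on abundant genes, and the whole set shifts to higher values with the second scaling.

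Without overlap and lower in circulating FAPs were 13 of 20 hnRNP and 2 of 11 SR genes with TMM scaling, and none of either family was without overlap and higher. Over all genes 11.4% were lower and 16.2% higher in this sense, and among genes of at least 20 CPM 28.8% were lower and 1.67% higher. With counts per 1000000 without 18S the lower counts were 6 hnRNP genes and 1 SR gene, against 5.01% of all genes. With scaling on abundant genes they were 5 hnRNP genes (Hnrnph1, Hnrnph3, Hnrnpc, Hnrnpa1 and Hnrnpa2b1) and 1 SR gene (Srsf7), against 4.2% of all genes. The shares among genes of at least 20 CPM were not computed for these 2 scalings. In both of these scalings Hnrnpl and Srsf4 were without overlap and higher, against 28.0% and 30.9% of all genes. Counts of Srsf4 are uncertain, since 65.4% of its 50-base words are shared with Gm12992, and Srsf3 (31.5%), Hnrnpa3 (28.2%) and Srsf5 (27.8%) also share such words with other genes. By adjusted p with scaling on abundant genes no member passed, and 0.0198% of all genes were lower.

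Like other genes of their abundance, the members had a wider range among circulating than among muscle libraries. The highest circulating library exceeded the lowest by a median of 2.41-fold for hnRNP and 3.01-fold for SR genes, against 1.75-fold and 1.95-fold in muscle. Over genes of at least 20 CPM these medians were 2.86-fold and 1.96-fold, and over all genes 2.52-fold and 2.50-fold. The spread was larger in circulating libraries for 16 of 20 hnRNP and 9 of 11 SR genes, a share of 80.0% and 81.8%, against 69.3% of genes of at least 20 CPM and 48.7% of all genes. Circulating libraries were also sequenced less deeply. Among the SR genes, the lowest circulating value lay in replicate 2 for 7 of 11 and in replicate 1 for none, and the highest lay in replicate 1 for 8 of 11. Among genes of at least 20 CPM replicate 2 was lowest for 42.9% and replicate 1 highest for 44.3%. Circulating replicate 1 also had the highest leukocyte marker sum, at 385, and its part in this order was not tested. Without circulating replicate 1 the SR median was -1.25.

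Other genes of the splicing machinery came from 7 lists naming 137 genes. None of those tested passed in edgeR in either direction, and with DESeq2 18 of 127 with an adjusted p (14.2%) were lower and none higher, beside 10.3% of all genes lower. The background of the edgeR values below was 45.5% negative with a median of 0.15 over all genes. Among genes of at least 20 CPM it was 78.3% negative with a median of -0.65. Of the hnRNPs under other symbols 7 of 8 had a negative value with a median of -1.07. Among these was Ptbp1, the polypyrimidine tract binding protein (-1.75 ± 0.55, adjusted p = 0.178 in edgeR and 0.0389 in DESeq2). SR-related proteins had 19 of 22 negative and a median of -0.87. Of these Tra2b, a sequence-specific activator, was at 106, 74.0 and 98.7 CPM in circulating and 268, 279 and 406 CPM in muscle replicates (-1.78 ± 0.38, adjusted p = 0.107 in edgeR and 0.00297 in DESeq2). Son, a nuclear speckle scaffold, had -0.77 ± 0.42.

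Kinases and importers of SR proteins had 8 of 12 tested members negative and a median of -0.32. Clk1, a kinase that phosphorylates the SR tail, was at 69.0, 21.03 and 72.5 CPM in circulating and 111, 212.5 and 313 CPM in muscle replicates (-1.97 ± 0.58, adjusted p = 0.170 in edgeR and 0.0199 in DESeq2). The U1, U2 and Sm core had 20 of 24 negative with a median of -0.65, among them U2af2, which binds the polypyrimidine tract (-1.92 ± 0.63), and Sf3b1, a U2 component (-0.97 ± 0.45). The tri-snRNP and catalytic core had 15 of 22 negative with a median of -0.49, with the helicases Dhx38 at -2.47 ± 0.72 and Dhx15 at -0.76 ± 0.50. Other splicing regulators had 21 of 31 negative and a median of -0.54, with Celf2 at -1.63 ± 0.37. Their values ran from -2.804 to 2.245, and with TMM 11 were without overlap and lower and 3 without overlap and higher. Over all genes 11.4% were lower and 16.2% higher in this sense, and among genes of at least 20 CPM 28.8% and 1.67%. Lower in this sense were also 4 of 8 hnRNPs under other symbols, 9 of 22 SR-related proteins and 2 of 12 kinases and importers. So were 10 of 24 in the U1, U2 and Sm core, 1 of 22 in the catalytic core list and 2 of 15 for nonsense-mediated decay. None in those lists was higher. Factors of nonsense-mediated decay had 12 of 15 negative and a median of -0.75, with Smg5 at -1.56 ± 0.67 and the exon junction protein Rbm8a at -0.14 ± 0.48.

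With scaling on abundant genes the medians of these 7 lists lay between -0.39 and 0.37, against -0.54 for the hnRNP and 0.16 for the SR genes. Long RNAs retained in the nucleus did not pass in edgeR either, with Malat1 averaging 3259 ± 721 CPM in blood against 7373 ± 631 CPM in muscle libraries (-1.18 ± 0.22, adjusted p = 0.0838 in edgeR and 0.0486 in DESeq2) and Meg3 at 287 ± 38.1 and 863 ± 125 CPM (-1.59 ± 0.30, adjusted p = 0.0838 in edgeR). With TMM scaling 3 of the 6 listed nuclear RNAs were without overlap and lower, beside 11.4% of all genes and 28.8% of those of at least 20 CPM. With DESeq2 3 were lower, beside 10.3% of all genes. As shares of counts without 18S, a different scale, the 4 other than Malat1 and Meg3 overlapped between the groups. In circulating and muscle libraries Neat1 averaged 0.0609% and 0.1155%, and Kcnq1ot1 0.0228% and 0.0229%. Miat averaged 0.001095% and 0.00122%, and Snhg11 0.000918% and 0.000562%. The part of nuclear RNA content in the hnRNP values was not tested.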

How the data were processed

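Per the labels, RLT plus buffer served for RNA extraction and a TruePrep kit for the libraries. The authors deposited 1 table of raw counts per gene symbol for 6 samples. Trim Galore, STAR, featureCounts and the build GRCm39 were used per the submitters' processing notes, and the treatment of reads that fit several genes is not given in the sources used here. The 18S reads fill 2 rows. Counts were fitted over all 20248 genes left by filterByExpr in edgeR 4.0.16 (R 4.3.3) with TMM scaling, a robust quasi-likelihood fit and Benjamini-Hochberg adjustment at 0.05. DESeq2 1.42.0 was an alternative. CPM values use TMM-scaled library sizes. Exon lengths (all members) and 50-base words came from GENCODE M21 on GRCm38. The fit was tested on simulated data. Replicates of a group differed far beyond sampling noise, with a chi-square per degree of freedom of 46.2 to 97.3. Groups came from the sample titles. Members, lists and tests were chosen with earlier results of these data known. Every member is named, with full values for those past the threshold, those with unadjusted p under 0.05 and no overlap, and the 3 of each family with the highest level per length. From each companion list the gene of lowest p and the most abundant gene are named, except 1 gene that is not reported here. Genes named beyond this were chosen after their values were seen.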

Additional observations from a re-analysis of the deposited data

How the results depend on the processing

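Over all genes, edgeR's 21 lower and 1 higher calls became 42 lower with RLE size factors, 4 and 3 scaled on abundant genes, 8 and 3 with library size without 18S, and 154 and 6 with no filter. DESeq2 gave 1387 and 156. The hnRNP genes lower, 1 in edgeR, were 0 scaled on abundant genes, 0 with library size without 18S, 2 with no filter (Hnrnph1 and Hnrnpa2b1) and 7 with DESeq2. DESeq2 also placed 1 SR gene and 18 companion genes lower, where edgeR placed 0, beside 10.3% of all genes. The labels do not say whether same-numbered samples are paired. Deviations from the group mean correlated at 0.00584 to 0.041 for same-numbered and at -0.0522 to 0.0412 for differently numbered samples. With 3 libraries per group such correlations cannot decide the pairing. With the replicate block the calls were 1 lower and 0 higher, with 0 hnRNP genes. Leaving out 1 library gave 0 to 63 lower and 0 to 2 higher genes, the 63 without circulating replicate 1, and 0 to 1 hnRNP genes. The hnRNP median moved from -1.24 to -0.543 scaled on abundant genes and -0.671 with library size without 18S. The SR median turned from -0.546 to 0.165 and 0.053, and lay between -1.25 and -0.366 with 1 library left out. The SR share difference of -0.0267 percentage points was -0.0494 as a sum of TMM-scaled CPM and -0.013 without circulating replicate 2. In scalings chosen after seeing the data (counts per 1000000 without 18S, then CPM scaled on abundant genes), the hnRNP genes without overlap were 6 and 5 lower and 1 and 1 higher, and the SR genes 1 and 1 lower and 1 and 1 higher. Beside these, 5.01% and 4.2% of all genes were lower and 28.0% and 30.9% higher.

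Of 372 member values under alternatives 318 kept their direction and side of the threshold and 38 changed sign, in 12 members, none of which passed in edgeR. Scaled on abundant genes, and then with library size without 18S, log2 fold changes were 0.26 and 0.16 for Hnrnpul1, 0.42 and 0.29 for Hnrnpf, 0.38 and 0.22 for Hnrnph2, 0.18 and 0.08 for Hnrnpm, 0.20 and 0.06 for Srsf1, 0.54 and 0.42 for Srsf10, 0.73 and 0.59 for Srsf9, and 0.16 and 0.05 for Srsf3. Hnrnpa0 was 0.05 on abundant genes. Hnrnpl was -0.08 with RLE, -0.20 with no filter, -0.15 with DESeq2 and -0.01 with the replicate block, and Srsf12 was -0.12 with no filter and -0.08 with DESeq2. With 1 library left out, values ran from -0.58 to 0.53 for Hnrnpd, -0.35 to 0.09 for Hnrnpl, -0.81 to 0.03 for Hnrnpul1, -2.71 to 0.56 for Hnrnph2, -0.63 to 0.24 for Srsf10, -0.83 to 0.40 for Srsf9 and -0.42 to 1.57 for Srsf12. Values that kept their sign but moved over 1.5 times, beside those in the report, were -0.90 for Hnrnpll without muscle replicate 3, -2.03 for Hnrnpul2 without circulating replicate 3, -1.31 for Srsf11 and -2.48 for Srsf2 without circulating replicate 1, and the ranges -0.90 to -0.07 for Hnrnpf, -0.97 to -0.36 for Hnrnpm, -0.96 to -0.30 for Srsf3 and 0.11 to 0.86 for Srsf4. Hnrnph1 ran from -3.52 to -2.83, and its adjusted p over all alternatives from 2.58e-06 to 0.220. The causes were not tested. Srsf4, Srsf12, Hnrnph2, Srsf2 and Hnrnph3 had under 20 reads in at least 1 circulating library, which limits their precision.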
